A study of Mus musculus with 18 samples.

Results

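The genes described here are 38 genes of protein folding and stress in the endoplasmic reticulum (ER), the compartment in which secreted and membrane proteins fold. They were chosen by name, as every probe set whose platform annotation gives 1 of the 38 symbols. All 38 were on the array, read by 86 probe sets of 45037, and all 38 had at least 1 probe set bright enough to test, among 13247 genes tested. Each gene is represented by its brightest probe set, a set of short probes against its transcript that gives 1 signal value per array.

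RNA came from tibiae of CD1 mouse embryos of both sexes at stage E15.5, kept as whole bones in organ culture for 6 days in minimal medium. C-type natriuretic peptide (CNP), a growth-promoting hormone of cartilage, was added at 1e-06 M on days 1, 3 and 5, and control bones received the vehicle, BSA/HCl, labelled 1 mM. Each treatment used 24 tibiae, and each bone was then cut into its resting/proliferating, hypertrophic and mineralized zones and the pieces of a zone were pooled. The titles number 3 cultures (2, 3 and 4) in each treatment, which gives 18 arrays in 6 groups of 3. These are pools of hand-cut pieces and not purified cells, so a zone holds every cell type of its piece.

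The unfolded protein response is the set of pathways by which a cell matches the folding capacity of its ER to the load of protein entering it. The sensor kinase IRE1 splices the messenger of the transcription factor XBP1, the kinase PERK slows translation and favours the factor ATF4, and ATF6 is cut from the membrane to become a factor itself. Their targets include chaperones, disulfide isomerases and the ER-associated degradation (ERAD) machinery that discards misfolded proteins. Growth plate chondrocytes and osteoblasts secrete large amounts of collagen, and ATF6 relatives and chaperones are known to serve that secretion.

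Array medians in the deposited table ran from 39.3 to 174.2, so all values below are quantile-normalised signals, and differences are on the log2(signal + 16) scale with their standard errors (SE). Of the zone markers, all 8 hypertrophic markers tested rose from the resting/proliferating to the hypertrophic zone in both treatments, and all 8 resting and proliferating markers fell in the mineralized zone. For resting/proliferating culture 4 of the vehicle set, the title and the treatment entry disagree, the entry giving CNP. This array was grouped by its title, and the calls lost without it are named with the zone counts. The ratio of 3′ to 5′ actin probes, which rises as RNA degrades, was 2.70 ± 0.31 (SD, n = 3) on vehicle and 4.06 ± 1.30 on CNP resting/proliferating arrays, 2.28 ± 0.08 and 2.95 ± 0.85 on hypertrophic arrays, and between 1.59 and 1.87 on all mineralized arrays.

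The promoters of 33 of the 38 genes were in the RefSeq tables used here (build GRCm38.p6, 250 bases before to 50 after the gene start), and no entry was used for Hyou1, Manf, Derl1, Atf6 or Creb3l1. The ER stress response element (ERSE), searched on both strands as CCAAT and CCACG held apart by a fixed spacer of N, occurred in 9 of the 33 genes and in 39 of 32851 promoters of that length (0.119%). These stretches are shown because they are a shared letter pattern of genes whose brightest probe sets, as the values further on show, did not share a zone pattern. Capitals mark the element, and each line reads 5′ to 3′ on the strand named.
Hspa5, chr2:34772012-34772056, plus strand: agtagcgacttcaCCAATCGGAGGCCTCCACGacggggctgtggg
Hsp90b1, chr10:86705520-86705564, plus strand: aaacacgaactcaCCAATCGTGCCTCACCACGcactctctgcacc
Hsp90b1, chr10:86705625-86705669, minus strand: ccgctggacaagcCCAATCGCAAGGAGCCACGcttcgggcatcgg
Calr, chr8:84847062-84847106, plus strand: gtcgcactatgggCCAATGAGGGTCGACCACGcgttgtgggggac
Canx, chr11:50325787-50325831, minus strand: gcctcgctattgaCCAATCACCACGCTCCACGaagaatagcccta
Pdia6, chr12:17266478-17266522, plus strand: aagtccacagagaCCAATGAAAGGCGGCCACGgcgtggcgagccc
Dnajc3, chr14:118937814-118937858, plus strand: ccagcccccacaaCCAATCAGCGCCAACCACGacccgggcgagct
Creld2, chr15:88819507-88819551, minus strand: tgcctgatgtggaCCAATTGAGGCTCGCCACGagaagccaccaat
Derl3, chr10:75893229-75893273, minus strand: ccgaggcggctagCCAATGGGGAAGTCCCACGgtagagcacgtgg
Syvn1, chr19:6046519-6046563, plus strand: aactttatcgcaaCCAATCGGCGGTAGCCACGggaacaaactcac

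Also searched was the core of the C/EBP-ATF composite element read by ATF4, searched as TGATGNAA on both strands. It occurred in 4 of the 33 genes and in 1304 of the 32851 promoters (3.97%). It is shown because 3 of its 4 genes, Asns, Chac1 and Trib3, belong to the ATF4 branch. Among the zones of the CNP cultures, these 3 and Herpud1 were all brightest in the hypertrophic zone. That was not particular to them, as 32 of the 38 members were higher there than in the resting/proliferating zone with CNP. With vehicle the mean of Herpud1 was 1616 in the resting/proliferating and 1598 in the hypertrophic zone. The means of Asns, Chac1 and Trib3 were highest in the hypertrophic zone with vehicle too. The Trib3 match lies just after the gene start and the other 3 lie before it.
Asns, chr6:7693214-7693243, minus strand: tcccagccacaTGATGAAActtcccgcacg
Chac1, chr2:119351038-119351067, minus strand: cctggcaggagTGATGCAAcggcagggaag
Trib3, chr2:152344028-152344057, plus strand: ccccgcccggcTGATGTAAacctgagctaa
Herpud1, chr8:94386306-94386335, minus strand: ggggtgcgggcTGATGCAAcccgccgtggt

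The TGACGTGG element associated with ATF6 and XBP1, occurred in 0 of the 33 genes and in 222 promoters (0.676%). The 5-base end of the ERSE alone, CCACG, overlaps the full element and was common, in 27 of the 33 genes and 32.8% of all promoters. A match describes the letters and not use by a factor.

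**Figure D1:**
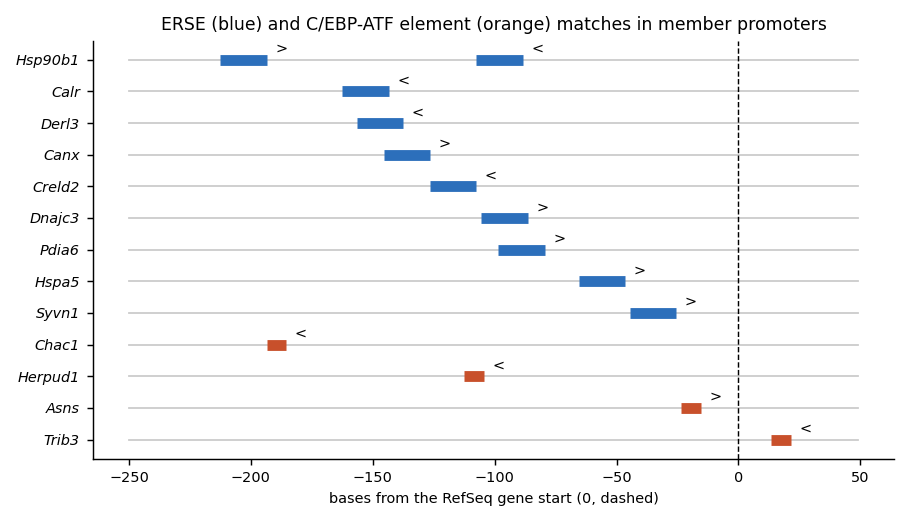
Position of each ERSE match (blue) and C/EBP-ATF core match (orange) along the 300-base promoter window of 13 genes, in bases from the gene start, with the arrowhead giving the orientation relative to the gene. All 10 ERSE matches lie before the start, between 212 and 26 bases from it.

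Across the zones of the untreated bones, the largest rises from the resting/proliferating to the mineralized zone that passed the test were those of Edem1, Creb3l1, Syvn1 and Atf6. The largest falls that passed were those of Pdia6 and Asns, and Trib3 and Derl2 were highest in the hypertrophic zone. Hspa5 (BiP, the main ER chaperone) passed no zone test on its brightest probe set, while dimmer ones did, in opposite directions. In vehicle cultures 4 members rose and 3 fell from the resting/proliferating to the hypertrophic zone, where 20% of all genes were called (9.05% higher, 11% lower). From the hypertrophic to the mineralized zone 5 rose and 4 fell (27.4% of all genes called, 14.4% higher and 13% lower), and from the resting/proliferating to the mineralized zone 8 rose and 5 fell (35% of all genes called, 16% higher and 19% lower).

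As shares of the list, the members called in those 3 comparisons were 18.4%, 23.7% and 34.2%, close to the shares of all genes. The median member difference was −0.01, 0.01 and −0.02, against −0.06, −0.02 and −0.08 over all genes. Calls came from limma with an adjusted p under 0.05 over all probe sets tested, with zones compared within cultures. In such bulk tissue, fewer cells of a type and less RNA per cell cannot be told apart.

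The CNP cultures, which share no array with the vehicle cultures, were cut and compared in the same way. Here 13 members rose and 1 fell from the resting/proliferating to the hypertrophic zone (27.7% of all genes called), 6 rose and 8 fell from there to the mineralized zone (37.3%), and 18 rose and 2 fell over the whole distance (42.1%). Members that rose were 34.2%, 15.8% and 47.4% of the list, and genes that rose were 12.1%, 19.6% and 20.1% of all genes, while 15.6%, 17.7% and 22% fell. The median member difference was 0.34, −0.06 and 0.26, against −0.06, 0.00 and −0.05 over all genes. Whether the zones differed more with CNP than with vehicle is a separate test, given with the CNP results.

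**Figure D2:**
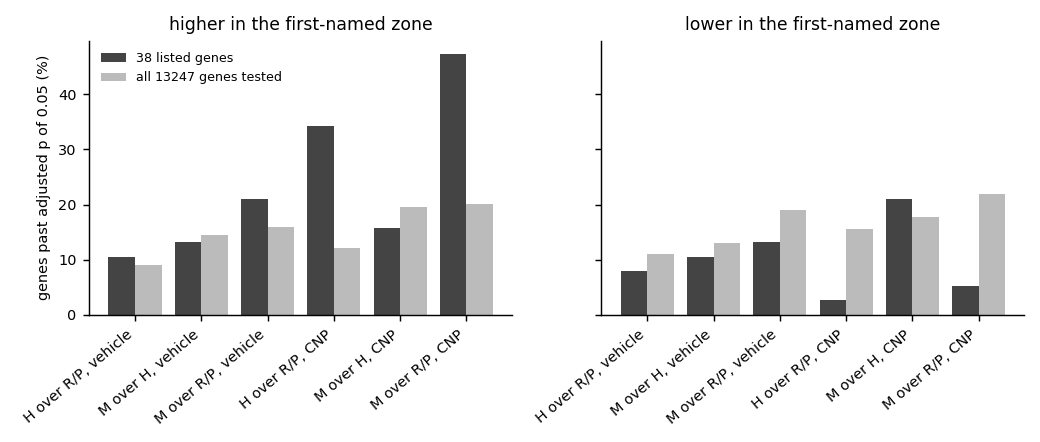
Share of the 38 listed genes (dark bars) and of all 13247 genes tested (light bars) past an adjusted p of 0.05 in each zone comparison, split by direction, with R/P, H and M standing for the resting/proliferating, hypertrophic and mineralized zones. In CNP cultures 34.2% and 47.4% of the listed genes were higher in the hypertrophic and mineralized than in the resting/proliferating zone, against 12.1% and 20.1% of all genes.

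Calls in vehicle and CNP cultures overlapped. From the resting/proliferating to the mineralized zone 9 members were called the same way in both treatments, 69.2% of the vehicle list and 45% of the CNP list, where over all genes the shares were 83.9% and 69.7%. Of these, Edem1, Creb3l1, Syvn1, Atf6, Dnajb9, Dnajb11 and Serp1 rose and Pdia6 and Hsp90b1 fell. From the hypertrophic to the mineralized zone 7 were shared (77.8% and 50%, over all genes 84.3% and 61.8%), and from the resting/proliferating to the hypertrophic zone 5 were shared (71.4% and 35.7%, over all genes 73.8% and 53.4%). No member was called in opposite directions by the 2 treatments in any of the 3 comparisons.

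Among the sensors, Atf6 rose in the mineralized zone. In vehicle cultures 2, 3 and 4 its normalised signal was 227, 229 and 229 in the resting/proliferating zone, 236, 221 and 267 in the hypertrophic zone and 407, 366 and 410 in the mineralized zone. In CNP cultures it was 161, 206 and 211, then 267, 207 and 206, then 380, 371 and 379. All 6 mineralized arrays lay above all 12 others. The rise from the hypertrophic zone was 0.67 ± 0.16 (limma adjusted p = 0.00713) with vehicle and 0.70 ± 0.16 (0.00391) with CNP. The former call was lost without vehicle culture 2 or 3 (adjusted p up to 0.0650), and a dimmer probe set of Atf6 differed by only 0.13 ± 0.20 there.

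Ern1, which encodes IRE1, and Eif2ak3, which encodes PERK, passed no zone test in vehicle cultures. In CNP cultures Ern1 rose from the resting/proliferating to the hypertrophic zone by 0.89 ± 0.18 (limma adjusted p = 0.0017) and to the mineralized zone by 0.54 ± 0.18 (0.0255). Its dimmer probe set differed by 0.08 ± 0.24 in each, so the 2 probe sets disagree in size. Eif2ak3 rose with CNP from the resting/proliferating to the mineralized zone by 0.56 ± 0.14 (0.0059), a call lost without CNP culture 2 or 4 and under median centring, as that of Ern1 over the same distance was without culture 3 or 4.

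Creb3l1 encodes a membrane-bound factor of the ATF6 kind, known as OASIS, that drives collagen synthesis in osteoblasts. Its signal in vehicle cultures 2, 3 and 4 was 535, 306 and 321 in the resting/proliferating zone, 581, 436 and 414 in the hypertrophic zone and 1373, 729 and 1131 in the mineralized zone. In CNP cultures it was 514, 338 and 316, then 676, 324 and 686, then 1560, 987 and 1861. Every mineralized array exceeded every array of the other zones, and within each culture the mineralized piece was the highest. The whole rise was 1.44 ± 0.21 (limma adjusted p = 7.95e-05) with vehicle and 1.86 ± 0.21 (5.31e-06) with CNP, and both calls held under every alternative run.

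Its relative Creb3l2, which serves cartilage collagen secretion, went the other way between the first zones. In vehicle cultures its signal was 616, 1025 and 884 in the resting/proliferating zone and 490, 555 and 453 in the hypertrophic zone, with no overlap. The fall was −0.71 ± 0.20 (adjusted p = 0.0212), and with CNP it was −0.64 ± 0.20 (0.0282). A dimmer probe set gave 0.20 ± 0.20 and 0.15 ± 0.20, and both calls were lost without culture 3 or 4 of their treatment.

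Of the transcription factors, Xbp1, Atf4 and Ddit3 (which encodes CHOP, a factor tied to prolonged stress) passed no zone test on their brightest probe sets. Xbp1 ran from 3623 to 5620 and Atf4 from 3688 to 5953 over the 18 arrays. As a mean of its probe sets Xbp1 rose with CNP into the mineralized zone. The rise was 0.41 ± 0.11 from the hypertrophic zone (limma adjusted p = 0.00719) and 0.30 ± 0.11 from the resting/proliferating zone (0.0316). A dimmer probe set of Ddit3 rose from the resting/proliferating to the hypertrophic zone by 0.94 ± 0.26 with vehicle (adjusted p = 0.0187) and 1.16 ± 0.26 with CNP (0.00365), where the brightest gave −0.25 ± 0.33 and 0.72 ± 0.33. Array signal also does not show the spliced form of Xbp1 or the amount of translated ATF4.

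Of the ATF4 and CHOP targets, Trib3 and Chac1 were highest in the hypertrophic zone of every culture. Trib3, a pseudokinase induced by ATF4 and CHOP, had signals of 163, 206 and 245 in the vehicle resting/proliferating zone, 387, 423 and 332 in the hypertrophic zone and 235, 324 and 294 in the mineralized zone. With CNP the values were 139, 285 and 273, then 447, 681 and 591, then 352, 308 and 430. The hypertrophic arrays were the highest in all 6 cultures. The rise into the hypertrophic zone was 0.86 ± 0.21 (limma adjusted p = 0.00889) and 1.29 ± 0.21 (0.000309), and the vehicle call was lost without culture 2 or 3 (adjusted p up to 0.114).

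Asns encodes asparagine synthetase, an ATF4 target of amino acid supply. Its signal fell from 2854, 3585 and 3776 in the vehicle hypertrophic zone to 1817, 1641 and 1717 in the mineralized zone, and from 4728, 3926 and 4849 to 1824, 1805 and 2096 with CNP. The groups did not overlap in either treatment. The fall was −0.97 ± 0.17 (adjusted p = 0.000653) and −1.23 ± 0.17 (5.34e-05), and without normalisation between arrays the vehicle call was lost (adjusted p = 0.130). From the resting/proliferating to the hypertrophic zone the difference was 0.13 ± 0.17 (0.689) with vehicle and 0.96 ± 0.17 (0.000655) with CNP.

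Chac1, a glutathione-degrading enzyme of the same branch, gave 0.58 ± 0.24 (adjusted p = 0.107) with vehicle and rose by 1.00 ± 0.24 (0.00541) with CNP into the hypertrophic zone. Ppp1r15a, also called GADD34, directs the phosphatase that reverses PERK signalling. It rose there in both treatments, by 0.75 ± 0.19 (0.0125) and 0.80 ± 0.19 (0.00617), and the calls were lost without vehicle culture 2 and without CNP culture 4. Sesn2, a stress-induced regulator of nutrient signalling, passed no zone test on its brightest probe set, with differences from −0.19 to 0.38.

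**Figure D3:**
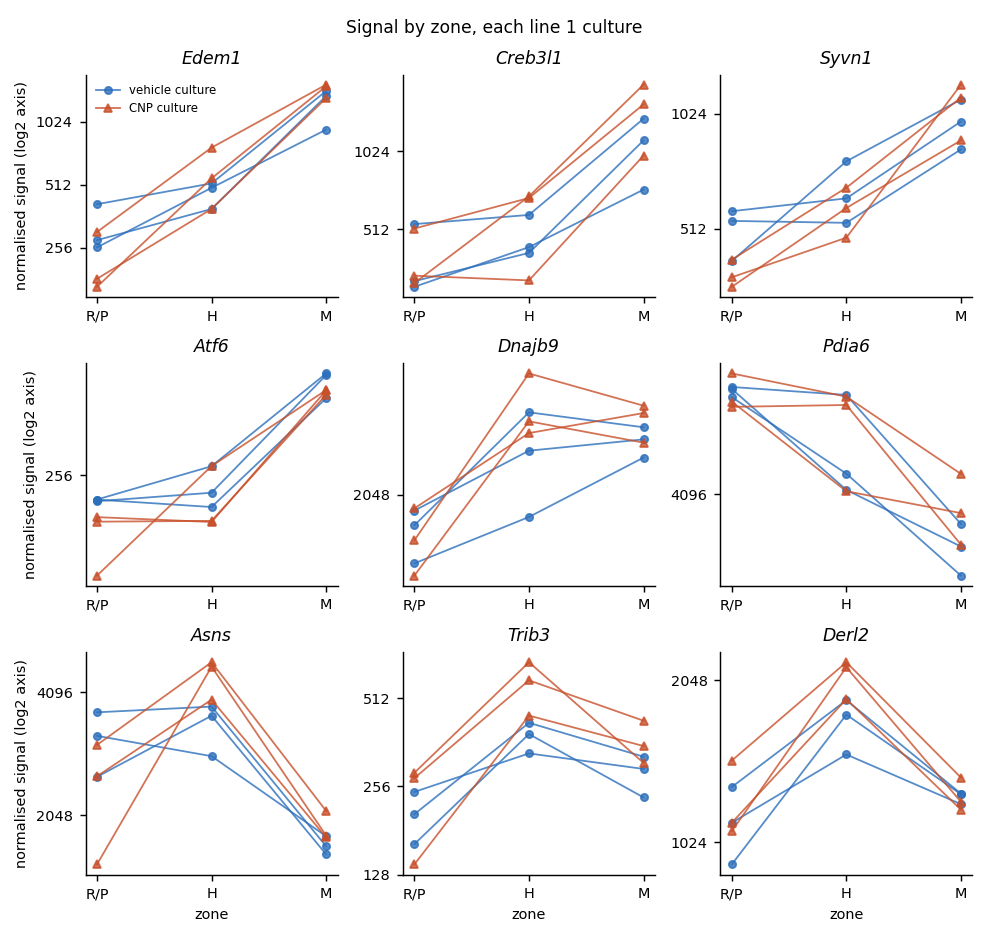
Normalised signal (log2 axis) of 9 genes by zone, with each line joining the 3 zones of 1 culture (circles, vehicle; triangles, CNP). Edem1, Creb3l1, Syvn1 and Atf6 are highest in the mineralized zone of every culture and Pdia6 is lowest there, while Trib3 and Derl2 peak in the hypertrophic zone of every culture.

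The ERAD genes had no common zone pattern. Edem1, a lectin that hands misfolded glycoproteins to degradation, changed most of the 38 genes. In vehicle cultures its signal was 258, 414 and 279 in the resting/proliferating zone, 496, 520 and 393 in the hypertrophic zone and 939, 1435 and 1359 in the mineralized zone. In CNP cultures it was 182, 305 and 167, then 393, 770 and 550, then 1328, 1539 and 1511. The signal climbed from zone to zone in each of the 6 cultures. The whole rise was 1.93 ± 0.19 (limma adjusted p = 2.2e-06) and 2.70 ± 0.19 (5.68e-08), and both calls held under every alternative run.

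Syvn1 encodes HRD1, the membrane ubiquitin ligase of ERAD. Its signal was 421, 536 and 569 in the vehicle resting/proliferating zone, 769, 530 and 615 in the hypertrophic and 1116, 826 and 978 in the mineralized zone. In CNP cultures the values were 382, 360 and 424, then 485, 580 and 655, then 1222, 872 and 1130. The mineralized arrays lay above all others. The whole rise was 0.92 ± 0.18 (adjusted p = 0.00121) and 1.42 ± 0.18 (2.01e-05), and it was called under every alternative run. Sel1l, the partner of HRD1, rose over the same distance only with CNP, by 0.62 ± 0.16 (0.00556), and its probe sets disagreed: from the hypertrophic to the mineralized zone with CNP the brightest rose by 0.44 ± 0.16 and another fell by −0.67 ± 0.24. The former call was lost without CNP culture 2 or 3.

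Derl2 encodes a derlin, a membrane protein of the retrotranslocation complex, and peaked in the hypertrophic zone. Vehicle signals were 1113, 1297 and 931, then 1490, 1879 and 1767, then 1205, 1261 and 1257 through the 3 zones. With CNP they were 1113, 1452 and 1073, then 1888, 2210 and 2164, then 1177, 1350 and 1217. The hypertrophic arrays were above all arrays of the other zones. Derl2 rose by 0.62 ± 0.13 (limma adjusted p = 0.00306) and 0.79 ± 0.13 (0.000339) and then fell by −0.45 ± 0.13 (0.0176) and −0.73 ± 0.13 (0.000416). A dimmer probe set fell between the first zones with CNP, by −0.49 ± 0.16, against the brightest. The vehicle rise was lost without culture 4 and the vehicle fall without culture 3 or 4.

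Of the remaining ERAD genes, Herpud1, a stress-induced scaffold, fell in vehicle cultures from the resting/proliferating to the mineralized zone by −0.52 ± 0.14 (adjusted p = 0.0102), though it stood at 0.07 without normalisation between arrays and lost its call without any 1 of the 3 vehicle cultures. With CNP its difference over that distance was 0.02 ± 0.14. From the hypertrophic to the mineralized zone Herpud1 fell with vehicle by −0.51 (adjusted p = 0.0153). That call was lost without vehicle culture 2 or 3, under median centring and without normalisation. With CNP the fall there was not called on the brightest probe set, but was as a mean of probe sets (−0.56 ± 0.15, 0.00944). Edem2, a mannosidase relative of Edem1, rose with CNP by 1.53 ± 0.36 (0.00368), from 28.3, 185 and 96.7 to 262, 322 and 244, and gave 0.83 ± 0.36 (0.0985) with vehicle. The lowest of those values, that of CNP culture 2, lies below the filter level of 63.5, and without that culture the call was lost (0.0672). Derl1 passed no test on its brightest probe set. As a mean of its probe sets it fell with CNP from the hypertrophic to the mineralized zone (−0.43 ± 0.15, limma adjusted p = 0.0382). Under median centring it fell with vehicle from the resting/proliferating to the mineralized zone (−0.60 ± 0.18, 0.0219). Derl3 fell with CNP from the hypertrophic to the mineralized zone by −0.56 ± 0.19 (0.0321), or 0.01 without normalisation, a call also lost without CNP culture 2 or 4.

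Among the HSP70 and HSP90 chaperones and their helpers, 2 of the DnaJ cochaperones were higher in the mineralized than in the resting/proliferating zone in both treatments. Dnajb9, a cochaperone that restrains IRE1 and serves ERAD, had signals of 1784, 1503 and 1907 in the vehicle resting/proliferating zone and 2775, 2421 and 2628 in the mineralized zone. With CNP they were 1926, 1423 and 1668 and 2958, 2589 and 3058. The groups did not overlap, and the rises of 0.59 ± 0.12 (limma adjusted p = 0.00202) and 0.78 ± 0.12 (0.000162) were called under every alternative run. Dnajb9 was already higher in the hypertrophic zone, by 0.47 ± 0.12 (0.0153) and 0.85 ± 0.12 (0.000135), and from there to the mineralized zone it differed by 0.12 ± 0.12 and −0.07 ± 0.12. Dnajb11, the cochaperone ERdj3, rose by 0.68 ± 0.20 (0.0168) and 1.10 ± 0.20 (0.000447), and the vehicle call was lost without culture 2 or 4.

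The brightest probe set of Hspa5 ran from 6903 to 9162 over all 18 arrays, with no zone difference above 0.16 in size. Its 2 dimmer probe sets disagreed with it and with each other: 1 rose from the hypertrophic to the mineralized zone by 0.42 ± 0.12 (adjusted p = 0.0214) and 0.44 ± 0.12 (0.0122), and the other fell over the whole distance with vehicle by −0.39 ± 0.12 (0.0251) and gave 0.01 ± 0.12 with CNP. Hsp90b1, the ER member of the HSP90 family (GRP94), fell into the mineralized zone by −0.48 ± 0.11 (adjusted p = 0.00418) and −0.38 ± 0.11 (0.0161), calls lost without vehicle culture 4 and without CNP culture 2. Hyou1, a nucleotide exchange factor for BiP, rose with CNP from the resting/proliferating to the mineralized zone by 0.91 ± 0.20 (0.0019), and its dimmer probe set gave −0.08 ± 0.47. Serp1, which protects proteins at the translocon, rose by 0.33 ± 0.11 (0.0337) and 0.31 ± 0.11 (0.0369), the latter turning to −0.04 under median centring. The vehicle call of Serp1 was lost without any 1 of the 3 cultures, and the CNP call without culture 2 or 3.

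Creld2, a secreted stress-induced disulfide isomerase of cartilage, fell with vehicle from 1435, 1498 and 1436 in the resting/proliferating zone to 949, 973 and 976 in the mineralized zone. That was −0.58 ± 0.14 (limma adjusted p = 0.00526), with no overlap, but 0.02 without normalisation between arrays, and the call was lost without culture 3 (0.0503). With CNP it fell from 2084, 1699 and 1502 in the hypertrophic to 1015, 1207 and 1134 in the mineralized zone, by −0.64 ± 0.14 (0.00272). Sdf2l1, a BiP complex component, rose into the mineralized zone with vehicle by 0.63 ± 0.21 (0.0321) and into the hypertrophic zone with CNP by 0.70 ± 0.21 (0.0222), lost without any 1 vehicle culture and without CNP culture 2 or 4. Dnajc3, also called p58IPK, fell into the hypertrophic zone with vehicle by −0.46 ± 0.15 (0.0389), a call lost without any 1 culture and shared by 1 of its 4 dimmer probe sets, and Manf, a secreted stress protein, passed no zone test.

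The disulfide isomerase Pdia6, which also attenuates IRE1, fell over the whole distance in both treatments. Its vehicle signals were 6079, 6335 and 6285 in the resting/proliferating zone, 4455, 6133 and 4171 in the hypertrophic zone and 2945, 3632 and 3315 in the mineralized zone. With CNP they were 5844, 6693 and 5972, then 5888, 6092 and 4149, then 3340, 4451 and 3796. The resting/proliferating and mineralized arrays did not overlap. The whole fall was −0.92 ± 0.12 (limma adjusted p = 3.26e-05) and −0.68 ± 0.12 (0.000385), lost with vehicle only when arrays were not normalised (0.116).

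The other isomerases and lectin chaperones passed no zone test with vehicle on their brightest probe sets. With CNP, Calr (calreticulin, a lectin chaperone) rose from the resting/proliferating to the hypertrophic zone by 0.44 ± 0.12 (adjusted p = 0.0109), and Pdia3 (ERp57, the isomerase that works with it) rose by 0.49 ± 0.16 (0.0323). The Pdia3 call did not carry to a dimmer probe set, which fell by −0.66 ± 0.22, and the mean of its probe sets was −0.08. P4hb, the disulfide isomerase that is also a subunit of prolyl hydroxylase, rose with CNP into the mineralized zone by 0.27 ± 0.09 (0.0229), or −0.11 under median centring. Serpinh1, the collagen chaperone HSP47, rose with CNP over the same distance by 0.74 ± 0.16 (0.00166) and gave 0.11 ± 0.16 (0.641) with vehicle. Pdia4 fell with CNP from the hypertrophic to the mineralized zone by −1.03 ± 0.34 (0.0302). Canx (calnexin) passed no zone test on its brightest probe set. Between those 2 zones a dimmer one fell by −0.83 ± 0.18 with vehicle, and with CNP from 1084, 1136 and 1138 to 632, 643 and 680. As a mean of its probe sets Canx fell there by −0.37 ± 0.11 (0.0211) with vehicle and −0.50 ± 0.11 (0.00245) with CNP. Without CNP culture 2 the calls of Calr, Pdia3, P4hb and Pdia4 were lost, and that of Serpinh1 was lost under median centring.

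On their brightest probe sets, the genes that share the ERSE had no common zone pattern. From the resting/proliferating to the mineralized zone with vehicle, Syvn1 rose, and Pdia6, Hsp90b1 and Creld2 fell. Hspa5, Calr, Canx, Dnajc3 and Derl3 passed no test there on these probe sets, with differences down to −0.22. A dimmer Hspa5 probe set fell there, as given above. As means of their probe sets Canx fell by −0.37 ± 0.11 (limma adjusted p = 0.0170) and Dnajc3 by −0.42 ± 0.14 (0.0262), and Hsp90b1 lost its call. Of the 4 genes with the C/EBP-ATF core, Trib3 alone rose into the hypertrophic zone with vehicle, and Asns, Chac1 and Trib3 with CNP. Herpud1 gave 0.31 ± 0.14 (adjusted p = 0.131) there on its brightest probe set, and passed as a mean of its probe sets (0.46 ± 0.15, 0.0357).

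Other cell types moved with the zones. The summed signal of 7 osteoclast markers was 1982 to 2911 on vehicle resting/proliferating arrays, 6303 to 7109 on hypertrophic and 26415 to 30077 on mineralized arrays. With CNP it was 1754 to 2974, 2182 to 4157 and 28179 to 29333. The 6 of them bright enough to test all rose from the resting/proliferating to the mineralized zone in both treatments. The 7 macrophage and leukocyte markers summed to 1199 to 1830 on vehicle resting/proliferating and 12861 to 13996 on mineralized arrays. The 5 endothelial markers, 4 of them tested, summed to 643 to 748 and 2543 to 2697. Osteoblast markers rose over that distance as well (5 of 7 with vehicle, 7 of 7 with CNP). Their part in the zone results, and that of the actin ratio, was not tested.

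Scaling and single cultures bear on the zone counts. Without normalisation between arrays the vehicle split from the resting/proliferating to the mineralized zone was 13 up and 0 down, and the median of all genes moved to 0.54. Under median centring it was 6 up and 6 down. From the hypertrophic to the mineralized zone the vehicle split was 6 up and 0 down without normalisation and 4 up and 2 down under median centring, and the CNP split was 5 up and 1 down and 4 up and 15 down. From the resting/proliferating to the hypertrophic zone the vehicle split was 3 up and 1 down under median centring and 1 up and 0 down without normalisation. The CNP split was 3 up and 0 down without normalisation. None of the 7 vehicle calls of this comparison held under every alternative. Without vehicle culture 2 or 4 the vehicle comparison had 2 calls. Without the array of disputed label it had 4, against 10 for the comparison of the mineralized with the resting/proliferating zone. The calls lost without that array were those of Creb3l2, Dnajc3 and Pdia6 in the former, Serp1, Herpud1 and Dnajb11 in the latter, and Creb3l2 between the hypertrophic and mineralized zones.

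**Figure D4:**
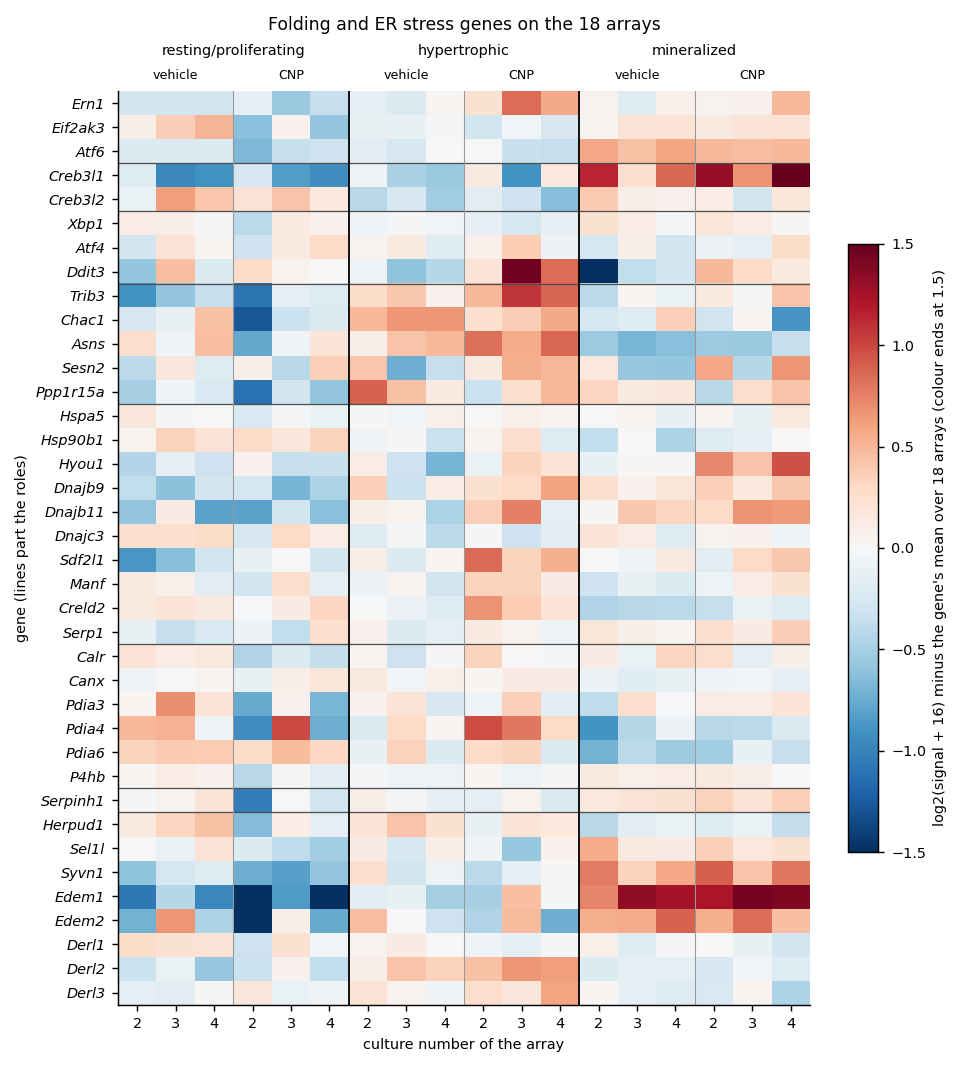
Level of each of the 38 genes on the 18 arrays, as log2(signal + 16) minus the gene's mean over all arrays (red higher, blue lower), with arrays by zone, treatment and culture number and horizontal lines between roles. Edem1, Creb3l1, Syvn1 and Atf6 are red in the mineralized columns, and CNP culture 2 is blue for many genes in the resting/proliferating zone.

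CNP against vehicle within the hypertrophic zone addresses which of these genes respond to the peptide where chondrocytes enlarge. In that zone 0 of the 38 genes passed limma's test, where 2% of all genes did (0.611% higher, 1.39% lower). At an unadjusted p under 0.05, 8 members were higher and 0 lower, where 6.39% of all genes were higher and 9.01% lower. The CNP and vehicle arrays did not overlap for 8 members that were higher and 3 that were lower, where the shares of all genes were 8.24% and 10.6%. The median member difference was 0.13, against −0.01 over all genes.

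The members nearest to the threshold were Creld2, Ern1 and Ddit3. Creld2 read 1293, 1218 and 1136 with vehicle and 2084, 1699 and 1502 with CNP. Ern1 read 563, 537 and 639 with vehicle and 733, 1122 and 926 with CNP. Ddit3 read 281, 190 and 216 with vehicle and 342, 844 and 540 with CNP. For each of the 3 genes, all CNP arrays lay above all vehicle arrays. A dimmer Ddit3 probe set did not share this, with a difference of 0.09 ± 0.26. The dimmer Ern1 probe set overlapped too, at 71, 85.2 and 71.4 with vehicle and 74.8, 79.1 and 115.5 with CNP.

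Creld2 differed by 0.52 ± 0.13 (limma adjusted p = 0.0507), Ern1 by 0.65 ± 0.17 (0.0669) and Ddit3 by 1.20 ± 0.34 (0.0853). Creld2, which has 1 probe set, passed with a pseudocount of 64 (0.0483) and without CNP array 4 (0.0232). It also passed with the replicate number (0.0470) or the hybridization day (0.0385) as a block, and when the other genes were summarised as means of their probe sets (0.0282, at the same difference). Ern1 (0.0355) and Ddit3 (0.0460) passed without CNP array 2, the dimmest of the 18 (median signal 39.3). That array also had the highest actin ratio of its zone, 3.93, against 2.20 to 2.53 on the other 5, and the part of RNA quality was not tested.

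Chaperone partners lay on the same side without passing. Sdf2l1 differed by 0.60 ± 0.20 (limma adjusted p = 0.153), Manf by 0.37 ± 0.13 (0.201) and Hyou1 by 0.44 ± 0.19. Their arrays did not overlap for Sdf2l1 and Manf, and did for Hyou1. Trib3 gave 0.56 ± 0.24 (0.302) and Asns 0.40 ± 0.19 (0.347). Hspa5, Canx, P4hb, Pdia3 and Dnajc3 differed by 0.02 to 0.03, with SEs from 0.08 to 0.22, and the ERAD genes ran from −0.29 to 0.29. Markers of other cells moved here too. Those of osteoclasts summed to 6303 to 7109 with vehicle and 2182 to 4157 with CNP (1 of 6 tested fell). Those of perichondrium and fibroblasts summed to 14050 to 15807 and 9287 to 11100 (3 of 6 fell). Their part in the result was not tested.

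**Figure D5:**
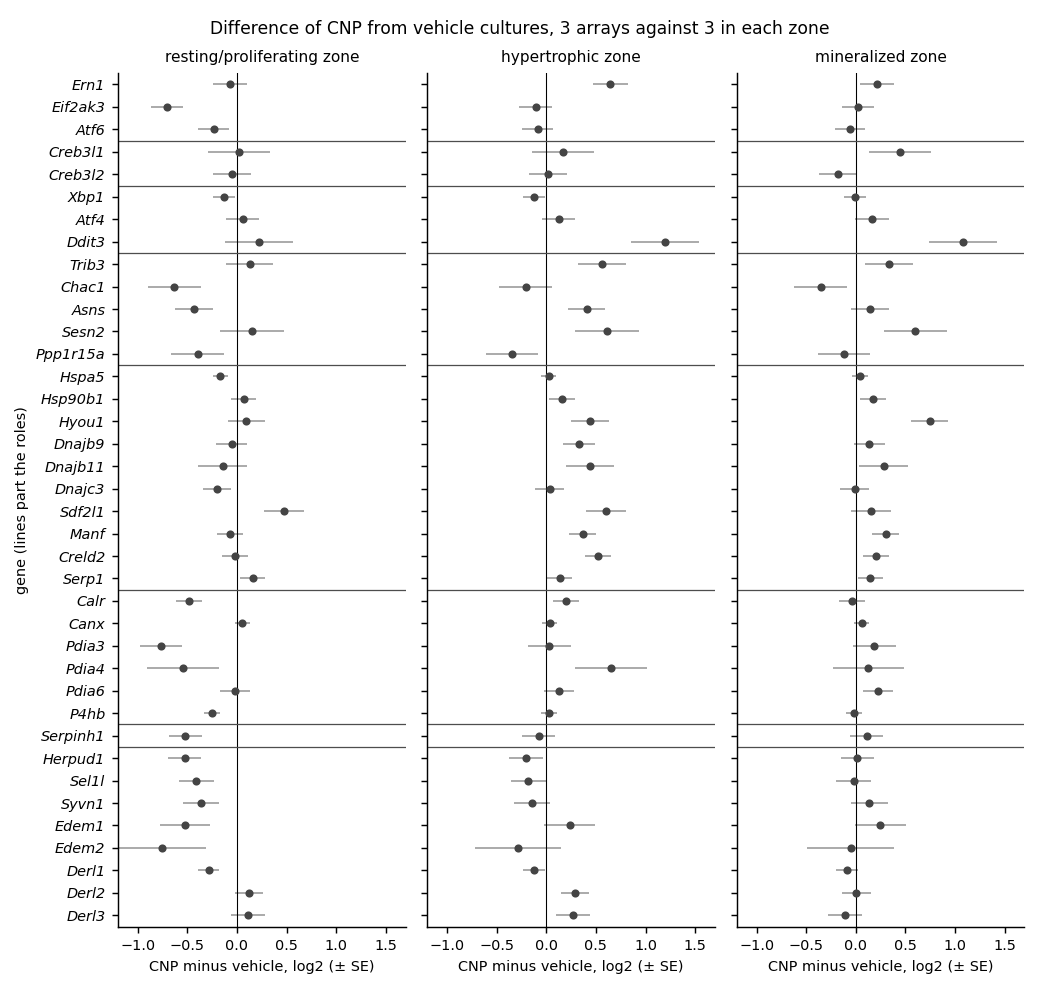
CNP minus vehicle difference (log2) of each of the 38 genes in the 3 zones, with points for the difference of 3 arrays against 3 and bars for its SE. None of these differences passed an adjusted p of 0.05, and the largest in the hypertrophic zone is that of Ddit3, 1.20 ± 0.34.

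In the resting/proliferating zone other members stood nearest to the threshold, on the lower side. Of the 38 members 0 passed the test, where 0.0302% of all genes did (0.00755% higher, 0.0226% lower), and 26 of 38 had a negative difference. At an unadjusted p under 0.05, 1 was higher and 11 lower, where 6.28% of all genes were higher and 7.31% lower. The arrays did not overlap for 1 higher and 6 lower members (7.56% and 7.28% of all genes). The median was −0.14, against −0.01 over all genes.

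Eif2ak3 read 1150, 1384 and 1536 with vehicle and 686, 1124 and 712 with CNP, a difference of −0.71 ± 0.16 (limma adjusted p = 0.111). Pdia3 read 2444, 3903 and 2777 with vehicle and 1420, 2508 and 1492 with CNP, a difference of −0.77 ± 0.22 (0.179). Calr read 4685, 4402 and 4459 with vehicle and 2972, 3509 and 3187 with CNP, a difference of −0.49 ± 0.13 (0.159). Eif2ak3 and Calr did not overlap between treatments, and Pdia3 did through CNP culture 3.

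Same-numbered cultures deviated together in this zone, and with the replicate number as a block Pdia3 alone fell past the threshold (adjusted p = 0.0461). A dimmer Pdia3 probe set did not share the fall. It read 253, 173 and 222 with vehicle and 266, 187 and 256 with CNP. The block used the pairing of cultures 2, 3 and 4 across treatments. Culture 3 of both treatments was hybridized on day 1 and cultures 2 and 4 on day 2. Leaving out culture 3 of both treatments therefore also leaves out a hybridization day. CNP culture 3 stood nearest to vehicle for Eif2ak3, Serpinh1, Herpud1, P4hb and Derl1. Without its array 8 members were called lower, namely Pdia4, Calr, Pdia3, Herpud1, P4hb, Derl1, Eif2ak3 and Serpinh1, and 912 of 27022 probe sets were called in all, against 7 with every array. Without culture 3 of both treatments 2 members were called lower, Eif2ak3 and Serpinh1, and 310 probe sets in all. The arrays that then remain on the CNP side, of cultures 2 and 4, have the highest actin ratios of all 18 (4.76 and 4.85, against 2.55 for culture 3). Without CNP array 2 or 4, or without the array of disputed label, 0 were called. The part of RNA quality in this difference was not tested.

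In the mineralized zone 0 of 38 passed, where 0.00755% of all genes did. At an unadjusted p under 0.05, 3 were higher and 0 lower (1.79% and 1.51% of all genes), and arrays did not overlap for 4 higher and 0 lower members (4.72% and 5.32%). Ddit3 read 82.4, 225 and 241 with vehicle and 421, 365 and 330 with CNP, a difference of 1.08 ± 0.34. Hyou1 read 1211, 1330 and 1287 with vehicle and 2181, 1776 and 2553 with CNP, a difference of 0.74 ± 0.19 (limma adjusted p = 0.672). For both genes all CNP arrays were above all vehicle arrays on the brightest probe set, and the dimmer one of Ddit3 gave −0.16 ± 0.26. The dimmer one of Hyou1 overlapped, at 1049, 365 and 552 with vehicle and 603, 1450 and 443 with CNP.

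Averaged over the zones of each culture, 3 cultures against 3, 0 of 38 members passed (0.0302% of all genes, 0.0151% in each direction), with 7 higher and 3 lower at an unadjusted p under 0.05 (5.65% and 7.66% of all genes). Ddit3 gave 0.83 ± 0.17 (limma adjusted p = 0.154; −0.07 ± 0.15 on its dimmer probe set) and Hyou1 0.43 ± 0.09 (0.167), the members nearest to the threshold. The count of 0 did not change with the replicate block.

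Whether the CNP response differed between zones was tested as an interaction. For hypertrophic minus resting/proliferating, 0 of 38 members passed (0.226% of all genes), and the lowest adjusted p was 0.140, for Calr at 0.68 ± 0.16. The difference was positive in 36 of 38 members, with a median of 0.30 against −0.01 over all genes. At an unadjusted p under 0.05, 11 members were positive and 0 negative, where 5.35% and 5.74% of all genes were. These values contain the CNP resting/proliferating arrays of high actin ratio, and without normalisation between arrays the medians were 0.04 and −0.36.

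For mineralized minus resting/proliferating, 0 members passed (0% of all genes), 33 of 38 were positive and the median was 0.28 against 0.02 over all genes. For mineralized minus hypertrophic, 0 passed (0.083% of all genes), with 20 positive and 18 negative. The larger number of zone calls in CNP than in vehicle cultures is therefore not a difference that passed its own test for any member.

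Further genes of the same pathways, 90 of 95 listed being tested, cover protein entry into the ER, N-glycan transfer, oxidative folding, collagen maturation, later ERAD steps and ATF4 targets. None passed in the 3 CNP comparisons, in their average over zones or in the interactions. With vehicle 6 rose and 4 fell from the resting/proliferating to the hypertrophic zone, 7 and 9 from there to the mineralized zone, and 8 and 15 over the whole distance. These are 11.1%, 17.8% and 25.6% of the 90, where 20%, 27.4% and 35% of all genes were called. With CNP the counts were 18 and 4, 9 and 19, and 24 and 15, or 24.4%, 31.1% and 43.3%, where 27.7%, 37.3% and 42.1% of all genes were called.

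Of 15 further ERAD genes, 3 rose into the hypertrophic zone with vehicle and 6 with CNP (9.05% and 12.1% of all genes rose). Ubxn4, which recruits the p97 ATPase to the ER, rose by 1.08 ± 0.16 (limma adjusted p = 0.00018) and 0.94 ± 0.16 (0.00044), and Vcp, p97 itself, by 0.45 ± 0.14 (0.033) and 0.83 ± 0.14 (0.00041). A list of 19 genes under ATF4 held amino acid synthesis and tRNA charging genes and some regulatory genes. With vehicle 2 of them rose into the hypertrophic zone, Cebpb and Nupr1, which are of the regulatory kind. With CNP 6 rose, among them the seryl-tRNA synthetase Sars (1.20 ± 0.19, 0.00028). The shares of all genes were the same 9.05% and 12.1%. The phosphatase of serine synthesis, Psph, fell into the mineralized zone with Asns, by −1.30 ± 0.19 (0.00014) and −1.37 ± 0.19 (5.7e-05).

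Protein entry and collagen folding genes also moved in both directions. Sec63, a translocon partner of BiP, rose into the hypertrophic zone by 1.13 ± 0.16 (limma adjusted p = 0.00013) and 1.44 ± 0.16 (1.1e-05), and Sec62, its partner, fell from there to the mineralized zone by −0.36 ± 0.11 (0.024) and −0.54 ± 0.11 (0.0012). Fkbp7, an ER prolyl isomerase, rose from the hypertrophic to the mineralized zone by 1.29 ± 0.12 (2.54e-06) and 1.55 ± 0.12 (2.38e-07). Uggt2, a glucosyltransferase relative that checks glycoprotein folding, fell over the whole distance by −1.59 ± 0.18 (9.23e-06) and −1.43 ± 0.18 (2.16e-05).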

How the data were processed

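RNA of 18 one-colour Affymetrix MOE430_2 arrays was measured, and the deposited table gives a linear intensity per probe set. Per the series design the authors used GeneSpring 7.2, while software for the step from probes to probe sets was not given in the sources used here. Here 64 control probe sets were left out, intensities were quantile-normalised and taken as log2(signal + 16), and the lowest 40% by mean were dropped, leaving 27022 of 45037. A fold on this scale understates changes of dim genes. Models were fitted with limma 3.58.1 under R 4.3.3 (lmFit, eBayes with trend, two-sided, Benjamini-Hochberg over all probe sets tested). CNP was tested in 1 fit with a mean per group, and zones and interactions with the 6 cultures as a block. Arrays were titled as separate trials, and their number limits the precision.

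The 38 members, their roles and the further lists were chosen with earlier results of these data known. Every member is named. Of the probe sets annotated to a single gene, the brightest stands for it. Members past the threshold have full statistics for some of the comparisons they passed, so a comparison not given is not one that failed. The leading members have them where none passed, and a disagreeing probe set is given where it matters. Genes of the further lists were named after their values were seen.

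Groups came from titles. Same-numbered CNP and vehicle cultures deviated together in the resting/proliferating zone (r = 0.19, 0.38 and 0.15) and as culture means (0.17, 0.34 and 0.21), each pair over the 0.1 taken as the limit. In the hypertrophic (−0.02, 0.09, 0.12) and mineralized zones (0.14, 0.12, 0.06) at least 1 pair was under it. Alternatives were other normalisations, pseudocounts, filters, probe set rules and blocks, and leaving out arrays or cultures. The fit was tested on simulated data. Of added log2 differences of 1, 46% were recovered for CNP in the hypertrophic zone. For the hypertrophic against the resting/proliferating zone with vehicle it was 45%. Of added differences of 2, 92% and 90% were recovered. Protein sequences were not used here.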

Additional observations from a re-analysis of the deposited data

How the results depend on the processing

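Counts of the 38 genes called moved most with the scaling between arrays and with single cultures. In vehicle cultures the resting/proliferating to hypertrophic count of 7 became 4 under median centring, 1 without normalisation and 2 to 4 without an array or culture. The hypertrophic to mineralized count of 9 became 6 under median centring, 6 without normalisation and 4 to 8 without an array or culture, and the whole-distance count of 13 became 8 to 10. In CNP cultures the counts of 14, 14 and 20 became 3, 6 and 11 without normalisation, and 10 to 18, 10 to 14 and 13 to 20 when an array or culture was left out. The CNP count of 0 became 0 to 8 in the resting/proliferating and 0 to 2 in the hypertrophic zone when arrays were left out.

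The pairing by replicate block, like the hybridization day as a block, gave 1 call in the resting/proliferating zone and 1 in the hypertrophic zone. The former was Pdia3 on its brightest probe set only (the blocked adjusted p being 0.0461), and the latter Creld2 (0.0470). It changed no other count of the CNP comparisons. The hypertrophic count was also 1 with a pseudocount of 64 and with the mean of all probe sets. Leaving out the 4 arrays whose log holds an entry of an abort by the user, chosen after seeing the data, left the CNP counts of the 3 zones at 0. Leaving out CNP cultures 2 and 4 together, for their actin ratios, was not run, since 1 culture would remain.

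Called members changed sign 6 times. Without normalisation Herpud1 (0.0723) and Creld2 (0.0164), mineralized against resting/proliferating with vehicle, and Derl3 (0.00505), mineralized against hypertrophic with CNP, did so. So did Pdia3 as a mean of probe sets (−0.0840, hypertrophic against resting/proliferating with CNP), and Serp1 (−0.0393) and P4hb (−0.111) under median centring, mineralized against resting/proliferating with CNP. The cause was not tested. With 3 arrays a group, small differences are not detectable, and dim genes such as Edem2 lie near the filter level. Even of simulated log2 differences of 1, only 46% were recovered in the CNP test of the hypertrophic zone. A count of 0 members called therefore does not show that differences of that size are absent.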
